A study of Mus musculus with 6 samples.

Results

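The genes of oxidative phosphorylation were described in RNA-seq of cultured mouse cerebellar granule neurons (CGNs). They were taken by symbol, as the nuclear families Nduf (complex I), Uqcr (complex III), Cox4 to Cox8 (complex IV) and Atp5 (complex V) and the mt- genes for Nd, Cytb, Co and Atp proteins. This gave 93 of the 55341 genes listed, of which 80 are nuclear and 13 lie in the mitochondrial genome. CGNs from pooled litters of CD1-IGS mice, taken at postnatal day 6 to 8 (P6 to P8) and treated with AraC against dividing cells, received the vehicle DMSO (3 cultures) or GSK-126 (3 cultures), an inhibitor of EZH2, the enzyme that methylates lysine 27 of histone H3. The sources name no transgene or deletion in these animals. Per the study's methods the drug was added at day in vitro 3 (DIV3) and RNA was collected at DIV5. The sample labels name only DIV3 and cerebellum, and the dose at DIV3 is not given in the sources used here. Each library is 1 culture, numbered 1 to 3 in each group, and p-values measure the spread between these cultures. Where a fit includes the replicate number, they measure the spread that is left once differences between the numbers are removed.

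Oxidative phosphorylation makes most of the ATP of a neuron. Complexes I, III and IV of the inner mitochondrial membrane pass electrons from NADH to oxygen and pump protons outward, and complex V, the ATP synthase, lets protons flow back to drive ATP synthesis. Most subunits are encoded in the nucleus and imported, while a small set of hydrophobic core subunits is made inside the organelle from mitochondrial DNA, so the complexes need products of both genomes. Many subunits of complexes IV and V come as isoforms from separate genes, of which some are known from muscle, lung or testis.

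The 6 libraries held 7407189 to 13092763 counts on genes. Values are CPM, the counts of a gene scaled to a common library size with TMM factors, and levels are compared between genes only as CPM per kilobase of the principal transcript. Genes with at least 10 counts in at least 3 libraries were described, which kept 71 nuclear and 10 mitochondrial members, and all 81 also passed the filter of the test. Libraries with the same replicate number deviated together, so each comparison is given without and with the replicate number as a block. The granule neuron markers summed to 3404 to 7209.6 CPM and all 12 were detected. Astroglial markers summed to 2633 to 8508 CPM and fibroblast or meningeal markers, mostly Col1a1 and Col1a2, to 4705 to 7013 CPM. Fewer cells of a type and less RNA per cell cannot be told apart in such bulk RNA.

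The mitochondrial genes fell into 2 sets in every library. For all of the low set but mt-Atp8, a full-length copy was found among annotated nuclear transcripts, and no other sequence was searched. 7 genes, mt-Nd1, mt-Nd2, mt-Nd4, mt-Nd5, mt-Nd6, mt-Co1 and mt-Cytb, each had 58194 or more counts over the 6 libraries. The other 6, mt-Co2, mt-Co3, mt-Atp6, mt-Atp8, mt-Nd3 and mt-Nd4l, had 254 or fewer. Chromosome 1 of GRCm38 holds a row of annotated pseudogenes from 24611535 to 24616197 that copies part of the mitochondrial genome. Of the 6 low genes, 5 aligned to such a copy over 98.3% to 99.9% of their length with 0 mismatches. No annotated transcript copy was found for mt-Atp8 (7766 to 7969), which starts between mt-Co2 and mt-Atp6 in the mitochondrial genome. The copies of mt-Co2 and mt-Atp6 lie at 24614885 to 24615565 and 24613974 to 24614651, so the place of mt-Atp8 falls within the row. The bases between these copies were not searched. Of the 7 high genes, 5 had no annotated transcript copy, mt-Nd4 was copied over 63.6% and mt-Co1 over 31.3% of its length.

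The gene mt-Nd4l, a small subunit of complex I, shows how far the likeness goes. Its copy Gm10222 holds the same 294 bases, so a read within them matches both loci equally well. The shared sequence (GENCODE M21 transcripts on GRCm38, mitochondrial genome plus strand and chromosome 1 minus strand), shown because a read pair inside it cannot be assigned to either genome, runs as follows.

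mt-Nd4l, chrM:9877-10170, and Gm10222, chr1:24612407-24612700: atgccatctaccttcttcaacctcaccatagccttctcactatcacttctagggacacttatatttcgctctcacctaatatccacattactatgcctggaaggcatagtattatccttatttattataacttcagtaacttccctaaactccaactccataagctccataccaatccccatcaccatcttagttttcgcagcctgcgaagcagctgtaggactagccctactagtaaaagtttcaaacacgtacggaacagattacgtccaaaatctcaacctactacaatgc

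Over the 6 libraries mt-Nd4l had 20 counts and Gm10222 had 28. The pair mt-Nd3 and Gm28438 had 19 and 694 counts, mt-Co2 and Gm28661 had 254 and 302, mt-Co3 and Gm28437 had 226 and 186, and mt-Atp6 and Gm10925 had 164 and 233. Reads without a unique alignment were 9.32% to 10.4% of the reads listed per library and were counted on no gene. How many of them came from these genes was not tested. The levels of the 6 low genes are therefore not read as expression, and mt-Atp8 is only listed at 0.

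**Figure D1:**
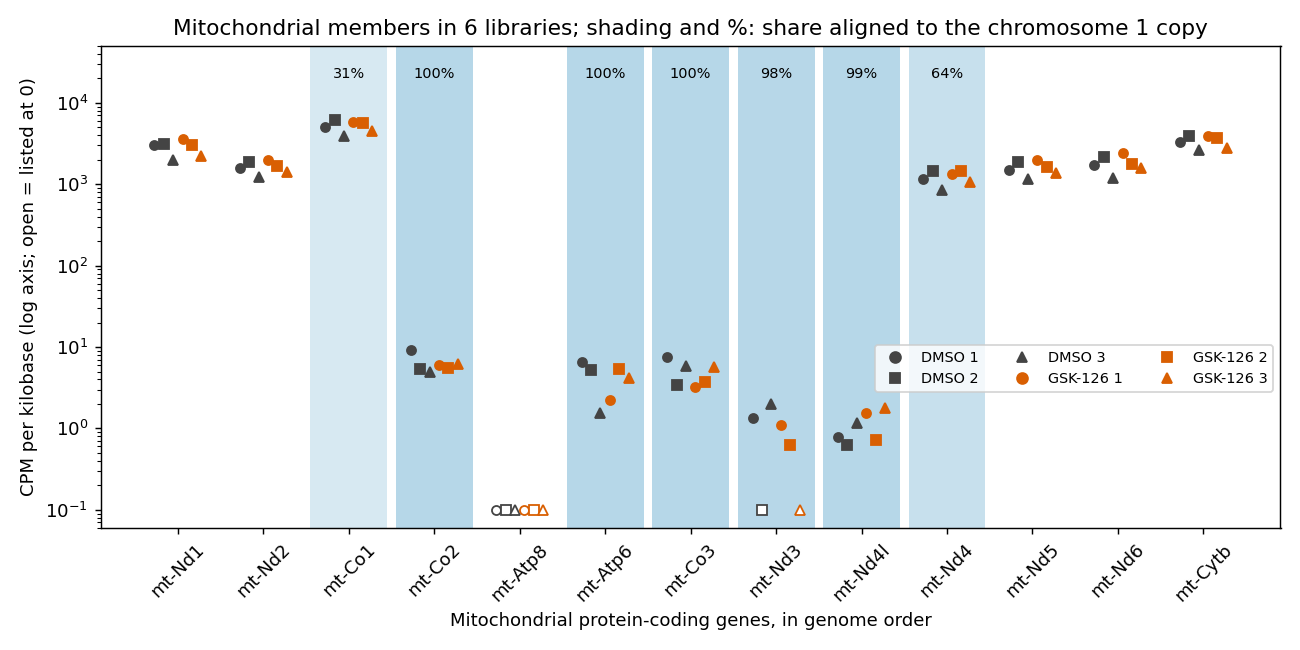
Level of the 13 mitochondrial protein-coding genes in CPM per kilobase (log axis) in each of the 6 libraries, in genome order, with DMSO in grey and GSK-126 in orange and shading for the share of each gene that aligns to a copy on chromosome 1. The 7 genes of the high set lie between 857 and 6223 CPM per kilobase, and genes with a full-length copy lie under 10. For mt-Atp8, listed at 0, no annotated transcript copy was found, although its neighbours mt-Co2 and mt-Atp6 both have one.

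Among the 7 genes that could be read, mt-Co1, the catalytic core of complex IV, stood highest with 5188 CPM per kilobase on average (3935 to 6223 over the libraries). The cytochrome b of complex III, mt-Cytb, followed with 3378 (2609 to 3934), and mt-Nd1 of complex I with 2845 (1997 to 3612). The lowest library of mt-Co1 stood just above the highest of mt-Cytb, while mt-Cytb and mt-Nd1 overlapped. The remaining subunits of complex I lay lower and overlapped each other, mt-Nd6 at 1809, mt-Nd2 at 1627, mt-Nd5 at 1589 and mt-Nd4 at 1218 CPM per kilobase. These levels are per full length, although 63.6% of mt-Nd4 and 31.3% of mt-Co1 have a copy, where reads may have no unique place, so the place of mt-Nd4 in this order is uncertain. The gene mt-Nd6 is the only one of them on the other strand, and 14 bases of it overlap mt-Nd5. As the strand setting of the counting is not given, which strand the reads on mt-Nd6 came from was not tested.

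With DMSO, mt-Co1 had 7783, 9615 and 6080.2 CPM in replicates 1, 2 and 3, and with GSK-126 it had 8989.7, 8751 and 6873 CPM. Replicate 3 was lowest in both groups, and the groups overlapped. The same held for mt-Cytb, with 3801, 4501 and 2985 CPM under DMSO and 4487, 4203 and 3207 CPM under GSK-126. For mt-Nd6 the values were 899, 1127 and 617 CPM under DMSO and 1257, 915 and 819.9 CPM under GSK-126. In replicates 1 and 3 each of the 7 genes was higher with GSK-126 than with DMSO, while in replicate 2 all but mt-Nd4 were lower. The summed level of these 7 differed between the libraries of a pair by 0.27, -0.12 and 0.19 on the log2 scale in pairs 1, 2 and 3.

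No mitochondrial gene passed the test of GSK-126 against DMSO. Without the block the log2 fold changes of the 7 genes ran from 0.07 for mt-Co1 to 0.18 for mt-Nd6, with standard errors from 0.219 to 0.263 and a smallest adjusted p of 0.961 (edgeR's quasi-likelihood test, Benjamini-Hochberg). With the block they ran from 0.08 to 0.20, and the smallest adjusted p was 0.145, for mt-Nd4 (0.17, 95% interval 0.03 to 0.32, edgeR). All 7 intervals lay within a 1.5-fold change in the block fit, and 0 of the 7 did without it. This depended on pair 2. When it was left out of the block fit, mt-Nd2 (0.29, adjusted p = 0.043), mt-Nd5 (0.33, adjusted p = 0.0294) and mt-Nd6 (0.45, adjusted p = 0.00207) passed in edgeR's test, and with any other pair left out 0 passed.

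The share of counts on all genes of the mitochondrial genome, ribosomal RNA included, was 2.35%, 2.66% and 1.75% in DMSO replicates 1, 2 and 3 and 2.78%, 2.58% and 2.0% in GSK-126 replicates 1, 2 and 3. Replicate 3 was again the lowest of each group. The counts of the mitochondrial members were 2.63 to 3.99 times those of the nuclear members. As the libraries were made from poly-A RNA and 6 mitochondrial genes could not be read, these figures describe the libraries and not the full RNA of the organelle.

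Of the 80 nuclear members, 3 core or near-core subunits could not be read either. Atp5a1, the alpha subunit of the catalytic head of ATP synthase, was listed at 0 in all 6 libraries. Ndufs3, a core subunit of complex I, had 2 counts in all, and Uqcrc1, a core protein of complex III, had 1. Each lay within a run of neighbouring protein-coding genes that were also at or near 0, such as Haus1 and Epg5 beside Atp5a1, Celf1 and Rapsn beside Ndufs3, and Celsr3 and Slc26a6 beside Uqcrc1. Genes just outside the runs had counts as usual, for instance 7722 for Mtch2 and 7238 for Psmc3 on either side of the run with Ndufs3. The cause of these runs was not tested, and the 3 genes are not taken as unexpressed. The other 6 members below the count rule were isoforms of complex IV, described further on.

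Promoters of the nuclear members were searched for binding motifs of factors known to control respiratory genes, and the shares are given as a description. NRF1, ETS-family proteins such as GABPA, and YY1 bind near the start of many such genes. The letters GCGCATGC (NRF1), CCGGAAGT (ETS) and AAGATGGC (YY1) were searched on both strands in the RefSeq promoters of GRCm38.p6, from 250 bases before to 50 bases after the start, which were held for 63 of the 80 members. The NRF1 letters were in 9 promoters (14.3%, against 2.8% of all 27025 promoters and 5.01% of those of tested genes). The YY1 letters were in 8 (12.7%, against 2.88% and 4.29%) and the ETS letters in 5 (7.94%, against 4.0% and 7.6%). At least 1 of the 3 was in 33.3% of the members' promoters and in 15.8% of those of tested genes. Among the 59 members with a promoter that met the count rule, the NRF1 and the YY1 letters were each in 13.6%. The ETS letters were in 6.78% of these 59, below the 7.6% of tested genes, and at least 1 of the 3 was in 32.2%. The NRF1 letters overlap their own reverse complement, so that 1 stretch can match on both strands. The 3 promoters below are shown for the motifs in capitals. Uqcr11, a small subunit of complex III, was the only member with more than 1 kind of motif.

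Uqcr11 (ETS, then NRF1 on the other strand), chr10:80406772-80407071, minus strand: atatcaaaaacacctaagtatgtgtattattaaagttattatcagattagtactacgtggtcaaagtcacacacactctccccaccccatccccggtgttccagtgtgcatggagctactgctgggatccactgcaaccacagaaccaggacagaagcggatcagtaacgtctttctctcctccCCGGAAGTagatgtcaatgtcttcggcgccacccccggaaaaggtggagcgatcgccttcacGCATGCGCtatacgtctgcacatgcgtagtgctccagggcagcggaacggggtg

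Cox6a1, complex IV (NRF1 on both strands, overlapping), chr5:115348909-115349208, minus strand: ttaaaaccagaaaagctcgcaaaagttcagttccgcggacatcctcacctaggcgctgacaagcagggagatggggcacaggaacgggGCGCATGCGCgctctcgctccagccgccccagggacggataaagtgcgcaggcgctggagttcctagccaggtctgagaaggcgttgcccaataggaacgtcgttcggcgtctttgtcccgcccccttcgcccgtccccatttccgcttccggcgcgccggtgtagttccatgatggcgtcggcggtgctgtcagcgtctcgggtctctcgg

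Atp5j2, the f subunit of the membrane part of ATP synthase (YY1), chr5:145191492-145191791, minus strand: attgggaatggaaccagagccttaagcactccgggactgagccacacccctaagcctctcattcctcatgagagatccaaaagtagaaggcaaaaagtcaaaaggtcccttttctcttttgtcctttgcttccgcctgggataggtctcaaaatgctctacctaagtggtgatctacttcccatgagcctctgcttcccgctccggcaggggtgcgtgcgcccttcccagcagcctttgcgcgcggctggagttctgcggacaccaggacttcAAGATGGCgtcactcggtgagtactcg

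Uqcr11 had 58.7, 34.4 and 47.5 CPM under DMSO and 49.3, 49.5 and 46.6 CPM under GSK-126. Cox6a1 had 213, 240 and 214 CPM under DMSO and 223, 232 and 180.1 CPM under GSK-126. Atp5j2 had 107, 79.8 and 90.7 CPM under DMSO and 112, 107 and 90 CPM under GSK-126. The groups overlapped for all 3, and a match of letters says nothing of binding in these cells.

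The level per kilobase differed between complexes. The median gene of complex I stood at 50.7 CPM per kilobase (35 genes, 19.1 to 271), that of complex III at 107 (7 genes, 65.8 to 216), that of complex IV at 146 (13 genes, 3.51 to 419) and that of complex V at 148 (16 genes, 6.02 to 453). Genes were grouped by symbol. The upper end of complex I is Ndufa4, since placed in complex IV, and the next gene, Ndufa7, stood at 97.2. The lower end of complex V is Atp5s, which is also on another list read below. The 7 readable mitochondrial genes had a median of 1809, and the lowest of them was above every nuclear member. These medians describe the annotated transcript lengths used, and 13 nuclear members have an annotated copy elsewhere with at least 98% identity over at least 150 bases, such as Atp5g2, whose transcript is matched along its whole length. A further limit is that 28 nuclear members share exon bases with another gene, 25 of them on the opposite strand, and the strand setting of the counting is not given in the sources used here.

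Complex I, the entry point of electrons from NADH, summed to 1895 ± 118 CPM under DMSO and 1918 ± 105 CPM under GSK-126 (SD over 3 libraries per group). Its highest member per kilobase was Ndufa4 (chromosome 6, 11900292 to 11907497), named for complex I but since placed in complex IV, with 271 CPM per kilobase (235 to 314). Ndufa7 (97.2) and Ndufc2 (94.5) followed and overlapped each other over the libraries. Ndufa4 had 171, 192 and 146 CPM under DMSO and 163, 178 and 143 CPM under GSK-126, and in each pair the GSK-126 library was slightly lower. Its log2 fold change was -0.07, with a standard error of 0.146 in the fit that ignores the replicate number (adjusted p = 0.962) and 0.0736 in the block fit (adjusted p = 0.648, edgeR).

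Among the core subunits that carry the flavin and the iron-sulfur clusters, the groups overlapped for all tested but Ndufs8. Ndufs1, which holds several of these clusters, had 119, 145 and 109 CPM under DMSO and 102, 119 and 111 CPM under GSK-126 and overlapped. Ndufv1, which holds the flavin, had 73.1, 75 and 63.1 CPM and 64.4, 71.2 and 63.8 CPM. Ndufs8, another iron-sulfur subunit, did not overlap, with 46.1, 47.3 and 36.9 CPM against 52.8, 50.6 and 48.1 CPM. Its log2 fold change was 0.22 with the block (95% interval 0.00 to 0.44), and the adjusted p was 0.222 (edgeR). Among the accessory subunits, Ndufa2 had 45.7, 26.1 and 34.4 CPM under DMSO and 45.9, 44.4 and 38.6 CPM under GSK-126, and DMSO replicate 2 was by far the lowest. With pair 1 left out, the block fit called Ndufa2 (0.48, adjusted p = 0.0417) and Ndufb4 (0.59, adjusted p = 0.0489, edgeR), and with all pairs it called neither. Ndufb2 had 15.6, 21.6 and 16.6 CPM under DMSO and 10.3, 15.5 and 16.8 CPM under GSK-126, and it was the lowest log2 fold change of the nuclear members, -0.34 without the block (adjusted p = 0.953) and -0.35 with it (adjusted p = 0.221, edgeR). Its exons share 156 bases with Gm16272 on the opposite strand.

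Complex III, which passes electrons from coenzyme Q to cytochrome c, summed to 542 ± 16.2 CPM under DMSO and 558 ± 39.8 CPM under GSK-126 (SD over 3 libraries per group). Uqcrq, a ubiquinone-binding small subunit, stood highest with 216 CPM per kilobase, followed by the hinge protein Uqcrh with 162 and Uqcr10 with 134. Uqcrq had 78.4, 80.6 and 85.6 CPM under DMSO and 101, 95.6 and 84.3 CPM under GSK-126, higher in pairs 1 and 2 and about equal in pair 3. Uqcrb did not overlap, with 47.8, 45.9 and 50.1 CPM against 56.8, 57.9 and 50.8 CPM, a log2 fold change of 0.20 (adjusted p = 0.258 with the block, edgeR). Uqcrfs1, the Rieske iron-sulfur protein, had a log2 fold change of 0.03 (95% interval -0.15 to 0.20 with the block).

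Complex IV, which hands electrons to oxygen, summed to 1535 ± 99.0 CPM under DMSO and 1542 ± 134 CPM under GSK-126 (SD over 3 libraries per group). Cox4i1, Cox8a and Cox6a1 stood highest, at 419 (388 to 454), 413 (372 to 461) and 379.9 (315 to 420.3) CPM per kilobase, and their ranges overlapped. Cox4i1, a subunit that tunes the enzyme to ATP, had 338, 305 and 292 CPM under DMSO and 324, 327 and 289 CPM under GSK-126. Its log2 fold change was 0.01 (95% interval -0.14 to 0.16 with the block, edgeR), among the most precise of the set.

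Complex V summed to 2466 ± 93.5 CPM under DMSO and 2433 ± 165 CPM under GSK-126 (SD over 3 libraries per group). Atp5b (chromosome 10, 128083273 to 128090391), the catalytic beta subunit, was the highest nuclear member with 453 CPM per kilobase (404 to 515). Atp5g3, a gene for the c subunit of the proton rotor, followed with 268, and Atp5o, a subunit of the stalk, with 207. Atp5b had 899.5, 987 and 829.6 CPM under DMSO and 838, 882 and 773 CPM under GSK-126. It was lower with GSK-126 in all 3 pairs, by -0.10, -0.16 and -0.10 on the log2 scale, but the groups overlapped, and the adjusted p of edgeR was 0.955 or, in the block fit, 0.301. Atp5mpl, a small proteolipid bound to the synthase, had 38.4, 41.0 and 43.8 CPM under DMSO and 53.6, 53.7 and 44.2 CPM under GSK-126, which did not overlap. Its log2 fold change, 0.30, was the highest of the nuclear members without the block, with an adjusted p of 0.953, or 0.117 in the block fit (edgeR). Pair 3 was nearly level, and without it the block fit called the gene (0.44, adjusted p = 0.0212).

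**Figure D2:**
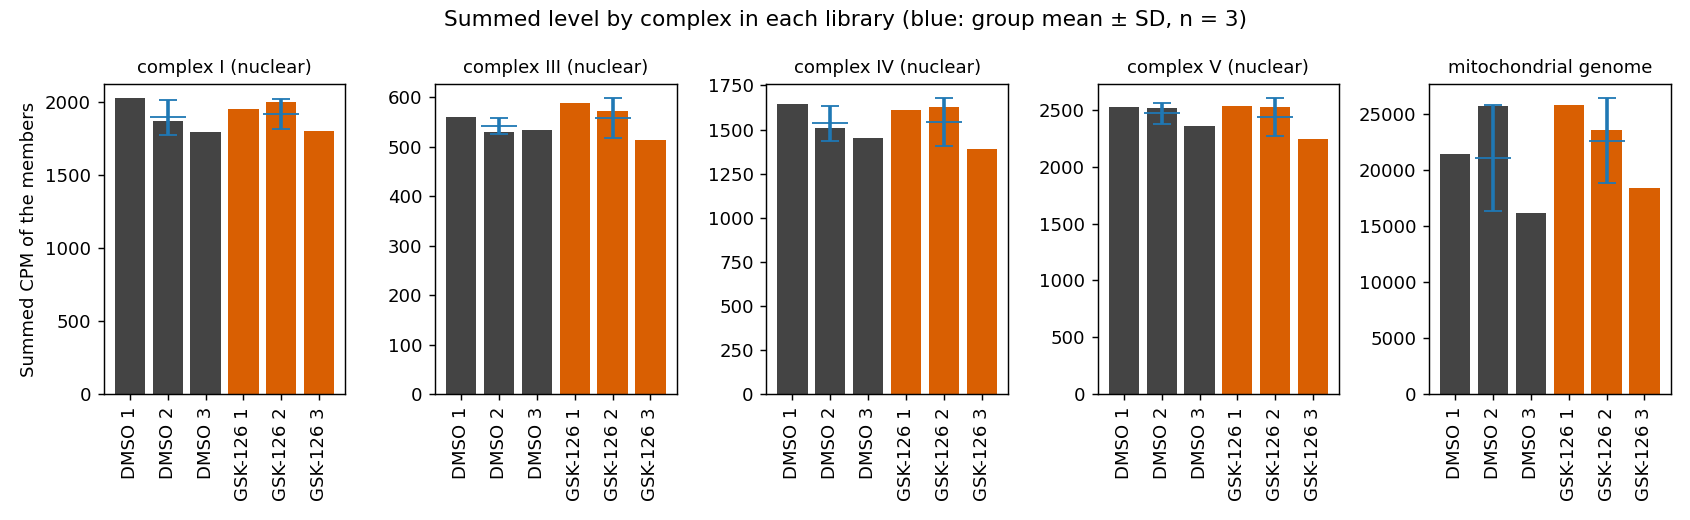
Summed CPM of the members of each complex in each library, on axes that start at 0, with the group mean ± SD in blue (n = 3). The nuclear sums differ by 1.19 times or less between libraries and the groups overlap in each panel, while the mitochondrial sum spans 16149 to 25781 CPM.

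Across the whole set, no nuclear or mitochondrial gene passed the threshold in the planned comparison, and none did with the block. Of 81 members 0 had an adjusted p under 0.05 without the block, where 0.0% of all 16729 tested genes passed (edgeR, Benjamini-Hochberg). The unadjusted p was under 0.05 for 0 members, where 1.77% of tested genes were higher and 2.21% lower at that level. With the block 0 of the 81 passed, against 3.35% of tested genes higher and 5.09% lower. The block fit had an unadjusted p below 0.05 for 6 members that were higher (Atp5mpl, mt-Nd4, Ndufa2, Uqcrq, Atp5e and Ndufs8) and 1 lower (Ndufb2), against 9.43% and 12.1% of tested genes. DESeq2's Wald test called 0 of the members without and with the block, where it called 21 and 963 genes in all. The groups did not overlap for 3 of the 81 tested members (Ndufs8, Uqcrb and Atp5mpl), all higher, against 4.72% of tested genes higher and 4.72% lower. Apart from the genes fixed by role, level and paralogy, those named in this paragraph were picked after their values were seen.

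The median log2 fold change of the 71 nuclear members was 0.03 (quartiles -0.03 and 0.12), that of the 7 readable mitochondrial ones 0.13 (0.10 with mt-Co2, mt-Co3 and mt-Atp6), and that of all tested genes -0.01 (quartiles -0.17 and 0.17). For the nuclear genes the estimates ran from -0.34 to 0.30. The 95% interval lay within a 1.5-fold change for 58 of the 71 nuclear members without the block and for 67 with it, against 60.6% of all tested genes with it. The intervals that stayed widest were those of Cox7a1 and Cox6b2, both at low counts. In pairs 1, 2 and 3 the nuclear median was -0.01, 0.18 and -0.03, positive only in pair 2. The median of the 7 mitochondrial genes was 0.25, -0.14 and 0.23 in pairs 1, 2 and 3. Over all 10 mitochondrial genes it turned to -0.06 without DMSO replicate 3 and to -0.0061 without GSK-126 replicate 1. DMSO replicate 2 was the lowest library for 26 of the 71 (36.6%, against 24.6% of tested genes), and GSK-126 replicate 3 for 24 (33.8%, against 16.6%).

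**Figure D3:**
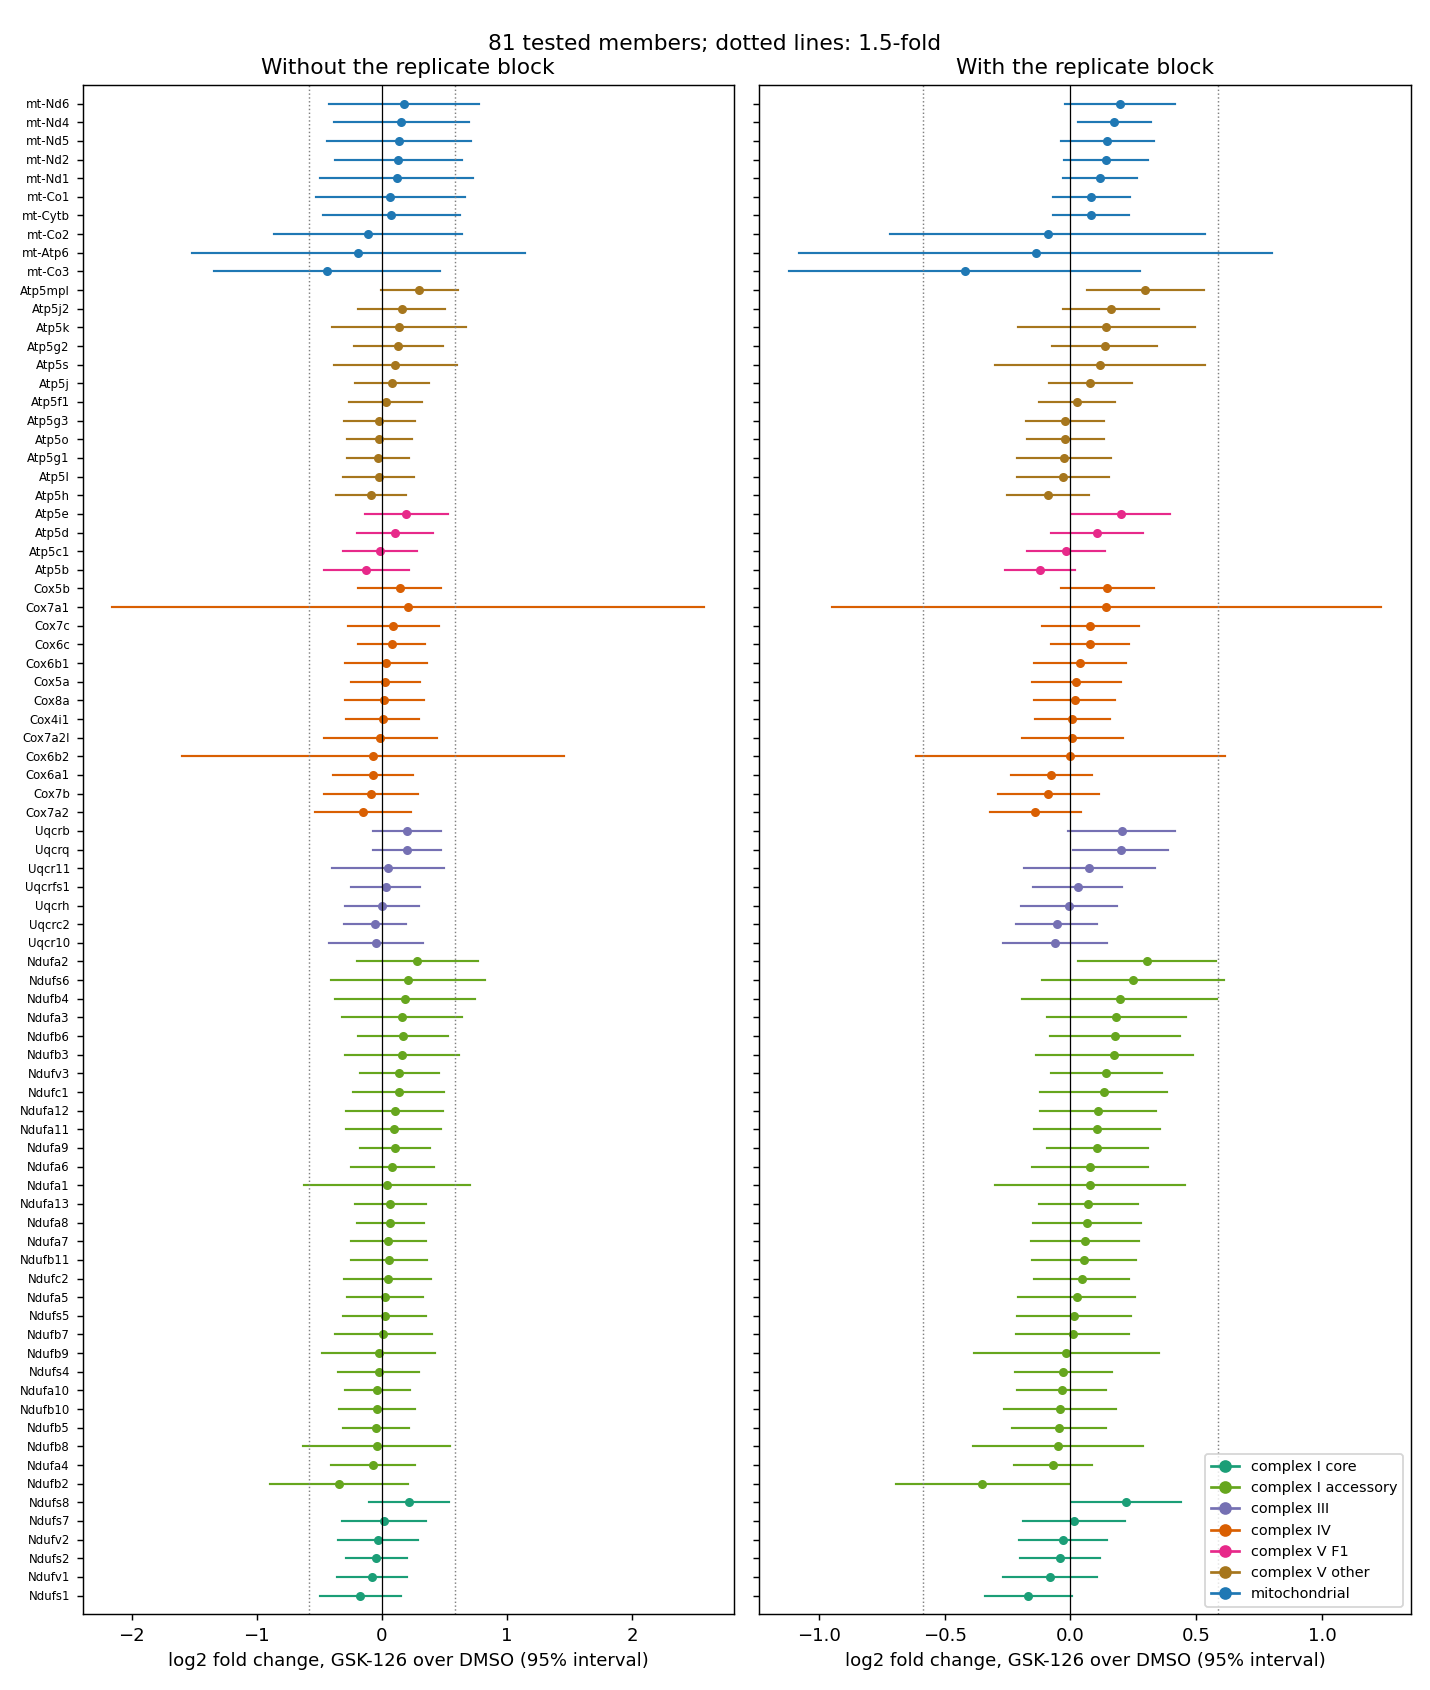
Log2 fold change of GSK-126 over DMSO with its 95% interval for the 81 tested members, without (left) and with (right) the replicate block, coloured by complex, with dotted lines at 1.5-fold and a narrower axis on the right. The nuclear estimates lie between -0.35 and 0.30 with the block, and the intervals of 67 of the 71 nuclear genes stay inside the dotted lines there.

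Isoform genes showed which form of a subunit the cultures used. Cox4i1 made up 99.6% to 99.9% of the Cox4i pair per kilobase in every library, and Cox4i2, known from lung and from low oxygen, had 35 counts in all. Cox6a1, the common form, made up 99.6% to 99.8%, and the muscle form Cox6a2 had 46 counts. Cox6a2 missed the count rule most narrowly, with 8, 11 and 11 counts under DMSO and 6, 5 and 5 under GSK-126, and was not tested. Each DMSO library (0.923, 1.03 and 0.956 CPM) stood above each GSK-126 library (0.455, 0.538 and 0.668 CPM), at 5 to 11 counts per library. Of the genes that were tested, 4.72% separated in this direction. Cox8a made up 99.6% or more of its set, Cox8b (muscle) had 13 counts and Cox8c (testis) 0, Cox7b2 had 1 and Cox6c2 had 2. For Cox4i2, Cox8b, Cox7b2 and Cox6c2 the libraries of the groups overlapped.

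The c subunit of ATP synthase comes from 3 genes that encode the same mature protein. Atp5g3 made up 45.8% to 52.0% of their summed level per kilobase, Atp5g2 24.1% to 31.4% and Atp5g1 21.5% to 24.8%. Mean shares were 49.8%, 26.8% and 23.4% with DMSO and 48.4%, 29.0% and 22.6% with GSK-126, and the libraries of the groups overlapped. None of the 3 passed the test, with adjusted p from 0.473 to 0.908 in the block fit (edgeR). The shares of Atp5g1 and Atp5g2 are uncertain, since their transcripts have near-identical copies over 69.0% and 100% of their length.

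**Figure D4:**
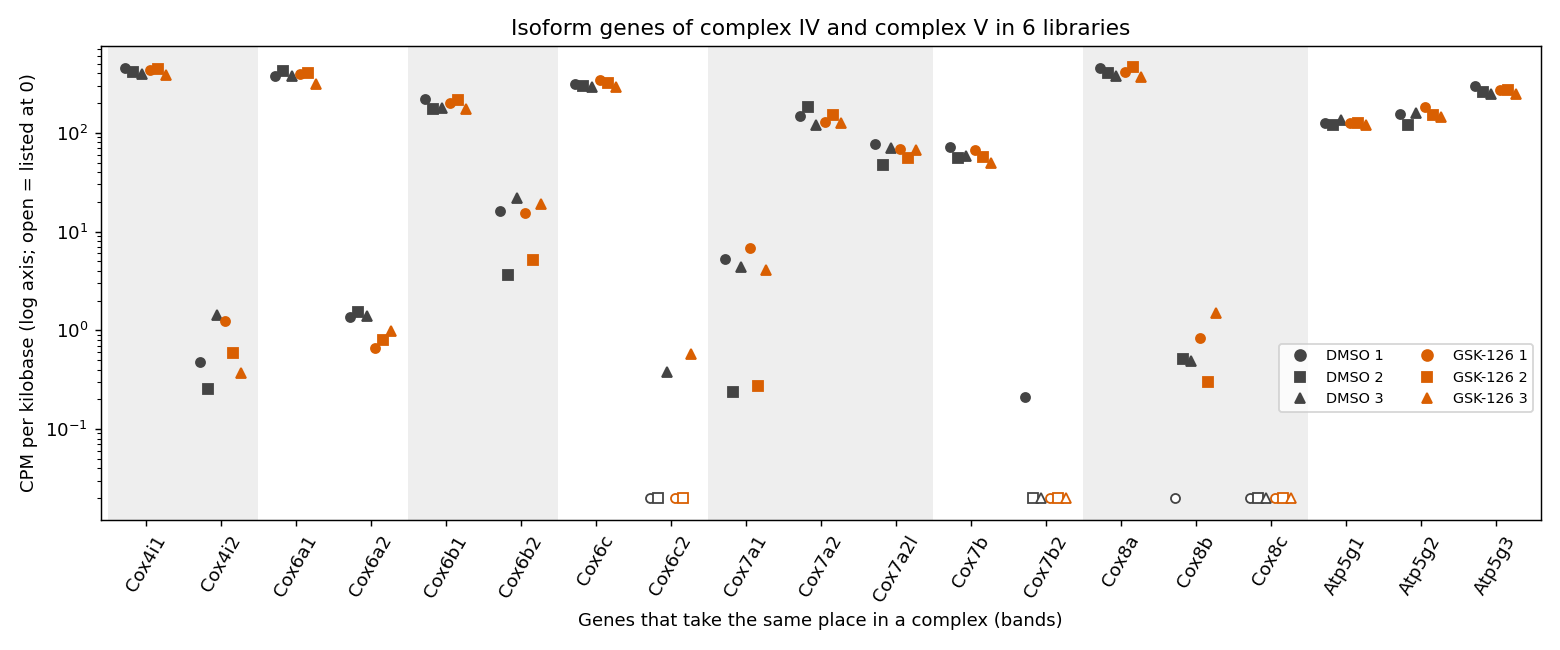
Level in CPM per kilobase (log axis, open symbols at the bottom are listed at 0) of isoform genes that take the same place in complex IV or V, in each of the 6 libraries. The common forms lie close together over the libraries, whereas Cox7a1 and Cox6b2 are lower in replicate 2 of both groups.

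Some isoforms differed between replicate numbers, as the libraries of both groups show. Cox7a1 (chromosome 7, 30184144 to 30186078), the muscle form of its subunit and the member just inside the count rule, had 18, 1 and 20 counts with DMSO and 35, 1 and 12 with GSK-126. In both groups replicate 2 held a single count, so that its level there is at the edge of detection. Cox6b2 (chromosome 7, 4751792 to 4753094), known from testis, had 65, 18 and 117 counts with DMSO and 94, 22 and 67 with GSK-126. It was again lowest in replicate 2, at 1.68 and 2.37 CPM against 7.12 to 10.2 CPM elsewhere. Cox7a2, the common form, went the other way among DMSO libraries with 98.6, 119.8 and 80 CPM, and with GSK-126 it had 85.9, 99.6 and 83.3 CPM. Cox7a2l, a relative that joins complexes III and IV, had 82.6, 50.3 and 75.1 CPM and 74.1, 59.7 and 72.4 CPM. Cox7a2 thus made up 79.5% and 73.1% of this set in replicate 2 and 62.0% to 64.6% elsewhere.

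These differences between replicate numbers were tested jointly in the block fit, a test added after the data were seen. Of 71 nuclear members 8 passed (11.3%), against 31.4% of all tested genes, and all 7 readable mitochondrial genes passed. The 8 were Cox6b2 (adjusted p = 6.52e-05), Cox7a1 (0.00125), Cox7a2l (0.00488), Cox7a2 (0.0125), Ndufa4 (0.0159), Cox7b (0.0315), Ndufc2 (0.0382) and Uqcr10 (0.0474) by edgeR's test with Benjamini-Hochberg adjustment. The highest replicate number was 1.27 to 1.43 times the lowest for 6 of them and 4.72 times for Cox6b2. For Cox7a1 no fold is given because of its single counts. For the 7 mitochondrial genes replicate 3 was lowest, and the highest was 1.36 to 1.58 times as high, with the smallest adjusted p for mt-Nd1 (1.24e-05, edgeR).

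Cell type markers moved along with the replicate numbers. The 8 astroglial markers summed to 2784 and 2633 CPM in replicate 2 and to 8229 and 8508 CPM in replicate 1, with 4595 and 4547 CPM in replicate 3. The 12 granule neuron markers were highest in replicate 2 of each group, at 7209.6 and 5497 CPM, against 4338 and 4885 CPM in the other DMSO and 3404 and 3677 CPM in the other GSK-126 libraries. Microglial markers summed to 149 to 373 CPM, and endothelial and mural ones to 556 to 1148 CPM. Markers of granule neuron progenitors or dividing cells summed to 193 to 325 CPM. Of these, Mki67 had 634 to 1790 counts per library, while Atoh1 had 7 or fewer and Gli1 12 or fewer. Skeletal and cardiac muscle markers were near 0, at 2.15 to 9.73 CPM in sum, with Ckm at 7 counts or fewer. The part of cell makeup in the levels of Cox7a1, Cox6b2 and the others was not tested. Granule neuron markers also moved with treatment, since 8 of 12 were called lower and 1 higher (Barhl1) with the block, for instance Slc17a7 (-1.95) and Gabra6 (-1.19) on the log2 scale, where 5.09% of all tested genes were called lower. Markers of other cells were called too. With the block, Acta2 (0.43) and Tagln (0.52) were called higher among 5 tested on the endothelial and mural list, on the log2 scale. S100b (0.56) was the only call among 8 astroglial markers (median -0.05), and Mbp (0.28) among 7 oligodendrocyte markers (median 0.11). C1qa (0.48) was the only call among 6 microglial markers (median 0.13), and Col1a2 (0.22) among 4 fibroblast markers (median 0.14). Over all tested genes 3.35% were called higher. Gad1 (-0.32) and Gad2 (-0.52) were called lower among 6 Purkinje cell and interneuron markers. On that list Calb1 (0.45), Pvalb (0.51) and Lhx5 (0.18) were higher and Pcp2 (-1.10) lower, without a call. The endothelial and mural sum, mostly Acta2 and Tagln, was higher with GSK-126 in each pair. It was 876, 899 and 1148 CPM against 556, 682 and 925 CPM in DMSO replicates 1, 2 and 3. The endothelial genes of this list did not share the rise, with Pecam1 at 0.02 and Kdr at -0.07 on the log2 scale with the block. Cldn5, at 12 counts or fewer per library, was not tested. None of these marker genes was called without the block. The part of these changes in the members' values was not tested either.

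**Figure D5:**
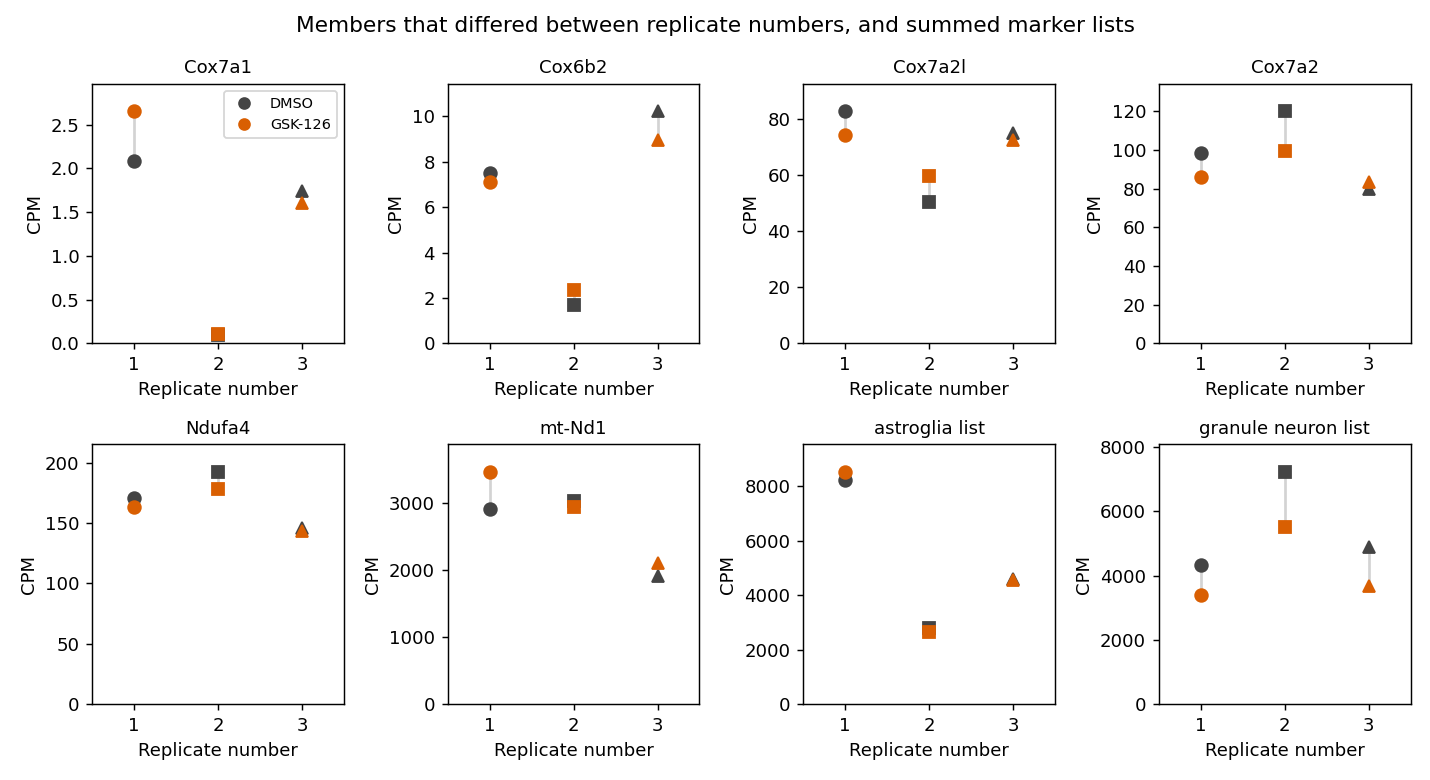
CPM of 6 members that differed between replicate numbers and the summed CPM of the astroglial and granule neuron marker lists, by replicate number, with DMSO in grey, GSK-126 in orange and grey lines joining the libraries of a pair. Cox7a1, Cox6b2 and Cox7a2l are lowest in replicate 2, where the astroglial list is at 2784 and 2633 CPM, and mt-Nd1 is lowest in replicate 3.

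Other genes of the pathway were read from 12 lists with 261 tested genes, of which Atp5s is also a nuclear member. Without the block 0 passed (smallest adjusted p = 0.953, edgeR, and 4 had an unadjusted p below 0.05, 2 in each direction). With it 2 were called higher (0.766%) and 4 lower (1.53%), both under the shares of all tested genes. The groups did not overlap for 25 of the 261 (9.58%), near the background over all tested genes of 4.72% higher and 4.72% lower. List medians ran from -0.02 for complex I assembly to 0.16 for subunits outside the symbol rule.

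The tricarboxylic acid cycle list, which supplies NADH, held 3 of the 4 genes called lower with the block, among 26 tested. Over all tested genes 5.09% were called lower, and the list itself was not tested. Idh3g, a subunit of NAD-dependent isocitrate dehydrogenase, had 88.9, 108 and 89.7 CPM under DMSO and 79.3, 78.8 and 66.5 CPM under GSK-126, which did not overlap (log2 fold change -0.35, adjusted p = 0.0158, edgeR). Idh3a, its catalytic subunit, had 118, 182 and 134 CPM and 103, 134 and 119 CPM (-0.27, adjusted p = 0.0403). Pdk2, a kinase that switches off pyruvate dehydrogenase, had 85.6, 119 and 102 CPM and 71.3, 101 and 79.1 CPM (-0.29, adjusted p = 0.0309). Coq8a, needed to make coenzyme Q, was the other gene called lower, among 15 tested for cytochrome c and coenzyme Q synthesis, with 32.8, 38.4 and 25.3 CPM and 20.8, 30.8 and 17.6 CPM (-0.49, adjusted p = 0.0187). All 4 were lower with GSK-126 in each pair, as were 22.8% of all tested genes. The block fit by which they were picked favours such genes, so this adds no support.

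The genes called higher were Top1mt, the topoisomerase of mitochondrial DNA (1 of 32 tested for its transcription and upkeep), and Hspe1, the cochaperonin of the matrix (1 of 25 tested on the list of carriers and outer membrane). Top1mt had 6.58, 5.87 and 7.82 CPM under DMSO and 13, 8.94 and 12.4 CPM under GSK-126, which did not overlap (0.76, adjusted p = 0.0214, edgeR with the block). Hspe1 had 61.9, 47.6 and 56.8 CPM and 82.1, 56.9 and 75.7 CPM (0.36, adjusted p = 0.0168). In DESeq2 with the block Idh3g (0.0419) and Hspe1 (0.0463) kept an adjusted p under 0.05, Idh3a and Coq8a (both 0.0833) and Pdk2 (0.0876) did not, and Top1mt was given none. Each of the 6 calls was lost when at least 1 pair was left out of the block fit, with adjusted p up to 0.231 for Idh3a without pair 2 and 0.181 for Coq8a without pair 1 (edgeR). Leaving out pair 1 ended the calls of Coq8a, Top1mt, Pdk2, Idh3a and Hspe1, pair 2 those of Idh3g, Pdk2 and Idh3a, and pair 3 those of Top1mt, Idh3g, Pdk2, Idh3a and Hspe1.

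The regulators of mitochondrial gene expression had 0 calls among 22 tested. Ppargc1a, a coactivator of mitochondrial biogenesis, had 39.1, 47.6 and 41.7 CPM under DMSO and 33.6, 36.6 and 33.4 CPM under GSK-126, which did not overlap (-0.31, adjusted p = 0.0958 with the block, edgeR). Myc had 17.1, 14.3 and 16.3 CPM and 21.9, 20.9 and 19.8 CPM (0.39, adjusted p = 0.112), and Nr1d1 did not pass (-0.18, adjusted p = 0.179). Among 75 tested genes of the mitochondrial ribosome 0 were called, with Mrpl52 at 0.41 (adjusted p = 0.127), Mrps36 at 0.46 (adjusted p = 0.152) and Mrpl23 at 0.36 (adjusted p = 0.162, edgeR with the block). The assembly factors gave 0 calls among 52 tested genes of complexes I, III, IV and V. Ndufaf8 of complex I had the smallest adjusted p among them, 0.173 (0.55).

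Complex II, the entry of electrons from succinate and wholly nuclear, had 0 calls among 8 tested. Sdhd, one of its membrane anchors, had 83.2, 65.6 and 71.4 CPM under DMSO and 92.3, 81 and 89.5 CPM under GSK-126 (0.26, adjusted p = 0.0714, edgeR with the block). Of the subunits outside the symbol rule, Atpif1, the inhibitor of ATP synthase, had 78.3, 80.7 and 75.6 CPM and 97.1, 97.8 and 83.5 CPM, which did not overlap (0.24, adjusted p = 0.0829). Cyc1, the cytochrome c1 of complex III, stood at -0.15 (adjusted p = 0.28), and Cycs, cytochrome c itself, at 0.08 (adjusted p = 0.687). Ucp2, an uncoupling protein among the carriers, had 53.4, 28.4 and 115 CPM under DMSO and 80.4, 35.4 and 122 CPM under GSK-126, lowest in replicate 2 and highest in replicate 3 of both groups (0.32, adjusted p = 0.0524).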

How the data were processed

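RNA of 6 CGN cultures (3 DMSO, 3 GSK-126) was sequenced by the authors after poly-A enrichment, trimmed with Trimmomatic 0.38, aligned to GRCm38.p4 with STAR 2.7.2b and counted on exons with HTSeq. The deposited values are raw counts per gene, with no normalization. The Gencode release and the strand setting are not given in the sources used here. The symbols equal those of GENCODE M21, which gave coordinates and transcript lengths. The 5 summary lines that name no gene (58.7% to 60.7% of reads listed) were left out. Counts were fitted in R 4.3.3 with edgeR 4.0.16 (TMM, filterByExpr, quasi-likelihood test, 16729 genes, Benjamini-Hochberg adjusted p under 0.05), and with DESeq2 1.42.0 as an alternative. Fits were tested on simulated counts with known changes, the spread of the block fit and no replicate effect. As the real libraries differ between replicate numbers, this does not show how either fit performs on them. The labels number replicates 1 to 3 in both groups. Deviations from the group mean correlated across genes at 0.561, 0.634 and 0.487 for same-numbered libraries, and at 0.00638 or less for others. As the deviations sum to 0 within a group, the low values of the others follow in part from the high ones. Same-numbered libraries were therefore treated as pairs, but the labels do not say what they share. Copies were found with BLAST 2.17.0. Levels per kilobase used the shortest best-supported principal coding transcript.

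The members and lists were chosen with earlier results of these data known. Named were all mitochondrial members, the 3 highest of each complex per kilobase, isoform sets, members called in either fit, those nearest the count rule, and of each other list up to 3 with the smallest p of the block fit, and marker genes past the threshold or near 0. Genes outside this rule are members at an unadjusted p under 0.05 or without overlap, genes shown for their promoters and core subunits shown for their role. No columns of other samples were present.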

Additional observations from a re-analysis of the deposited data

How the results depend on the processing

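Neither gene set had a call in the planned fit, with DESeq2, with other scalings or filters, at an adjusted p under 0.01, with any 1 library left out, or with the replicate block of all 3 pairs. Over all tested genes the count of calls was 0 in the planned fit, 21 with DESeq2, 10 with no filter, 1412 with the replicate block, 963 with the replicate block in DESeq2, and 1088, 833 and 1277 with the replicate block and pair 1, 2 or 3 left out. With a pair left out of the block fit, 0 to 2 nuclear members passed (Ndufa2 and Ndufb4 without pair 1, Atp5mpl without pair 3) and 0 to 3 mitochondrial ones (without pair 2). The log2 fold change of mt-Co3 turned from -0.4354 to 0.0288 in the replicate block fit without replicate 1, where a turn was counted only if the planned value lay more than its standard error from 0. The nuclear median stayed between 0.01 and 0.11 with 1 library left out, and was -0.02 to 0.07 in block fits without a pair. The mitochondrial median here covers all 10 tested genes, with mt-Co2, mt-Co3 and mt-Atp6 included. It ran from -0.06 without DMSO replicate 3 to 0.24 without DMSO replicate 2. It was -0.0061 when GSK-126 replicate 1 was dropped. Upper-quartile scaling gave medians of 0.07 and 0.13. Leaving out the genes with a full-length copy, an alternative chosen after seeing the data, gave a mitochondrial median of 0.13. Low counts limit Cox7a1, Cox6b2 and the mitochondrial genes with a copy, and the spread between cultures limits the others.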
